A study of Mus musculus with 6 samples.

Results

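Of the peaks in the 6 deposited MeDIP-seq peak lists, 12807 of 579787 lay in gene deserts, taken as stretches of chr1 to chr19 more than 500 kb from the body of any protein-coding gene. A peak was counted there when its summit, the position with the most reads, met that distance in GENCODE vM1 on the mm9 build. The rule used position only and no measured level. Each sample held between 1848 and 2270 desert peaks, and peaks that overlapped by at least 1 bp across samples were joined into 3556 desert regions out of 170444 regions in all. In the 267 deserts, peaks were sparse. They were longer, higher in fold enrichment and found more often in another replicate than peaks in the rest of chr1 to chr19. Much of this sequence recurred: 2813 of the 3556 desert regions (79.1%) aligned to at least 1 other desert region. The same share was not computed for regions in the rest of chr1 to chr19. The 200 bases printed below for the largest family of related sequences read as the long terminal repeat of an endogenous retrovirus.

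The study profiled DNA of primary mouse mesangial cells, which lie among the glomerular capillaries of the kidney and can contract, by immunoprecipitation of methylated DNA and sequencing (MeDIP-seq). Of the 2 groups, each with 3 samples, 1 was labelled control and the other was given TGF-β1 (10 ng/ml) over a span of 72 h, and all were cultured in 25.5 mM glucose and 20% foetal bovine serum and used at passages 3 to 6. The labels give no mouse strain or genotype and do not say whether the 3 samples of a group came from separate cultures, so p-values between groups measure only the spread between these samples. Peaks of genomic DNA hold no expression, so the cell type could not be checked against its markers. The samples were called from 9407103 to 13291419 reads, and every TGF-β1 sample had more reads than every control sample (9407103 to 11494356 reads in control and 12634300 to 13291419 with TGF-β1). Depth and treatment therefore cannot be told apart in any comparison of peak numbers or pileup.

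Gene deserts are long intervals between protein-coding genes. They are poor in the dinucleotide CpG, the main target of DNA methylation in mammals, and rich in copies of transposable elements, and those beside developmental genes can hold enhancers that act over long distances. Methylation of CpG in long terminal repeats is a known means by which mammalian cells keep endogenous retroviruses silent, and the intracisternal A particle (IAP), a retrovirus-derived element of the mouse genome, is a much studied case.

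Desert regions were aligned to each other and gathered into families of related sequence (at least 80% identity over at least 100 bp). There were 10 families of at least 60 regions, which together held 1912 of the 3556 regions (53.8%). The 200 bases of a family's central region with the most alignment to its other members are printed for 3 families. They show kinds of sequence that carried desert peaks, and not every member need hold them. All sequences here are from the plus strand of NCBIM37 (mm9), and each CpG is in capitals.
Family 1, chr6:10639720-10639919: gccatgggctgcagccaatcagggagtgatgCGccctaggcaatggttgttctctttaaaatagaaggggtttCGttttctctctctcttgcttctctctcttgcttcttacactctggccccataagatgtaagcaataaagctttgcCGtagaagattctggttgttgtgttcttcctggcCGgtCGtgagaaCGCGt
Family 2, chr2:108120016-108120215: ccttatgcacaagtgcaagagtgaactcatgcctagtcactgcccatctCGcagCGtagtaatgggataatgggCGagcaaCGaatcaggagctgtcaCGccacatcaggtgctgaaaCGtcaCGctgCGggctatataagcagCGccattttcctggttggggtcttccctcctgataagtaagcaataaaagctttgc
Family 7, chr7:61111046-61111245: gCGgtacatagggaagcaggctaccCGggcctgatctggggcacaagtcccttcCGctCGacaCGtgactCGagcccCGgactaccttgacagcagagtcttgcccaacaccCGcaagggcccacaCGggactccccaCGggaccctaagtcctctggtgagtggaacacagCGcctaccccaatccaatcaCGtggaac
The printed sequence of family 1 read as the long terminal repeat of an IAP element, with its "aataaa" polyadenylation signal, and held 7 CpG in 200 bases. Family 2, with 9 CpG, carried the same signal near its end and was left without a name. Family 7 read as the start of a LINE-1 element, a mobile element without terminal repeats that copies itself through RNA, and held 12 CpG. These names were given from the letters alone, since no repeat annotation was used here.

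A second set shows 200 bases around the summit of a region of each kind described further on. In this way the letters under a strong, long, distant or group-dependent call can be seen. Each was the leading region of its kind, except for calls in TGF-β1 samples only. There the region shown ranked 2 by mean pileup.
Highest fold enrichment, chr2:95256127-95256326: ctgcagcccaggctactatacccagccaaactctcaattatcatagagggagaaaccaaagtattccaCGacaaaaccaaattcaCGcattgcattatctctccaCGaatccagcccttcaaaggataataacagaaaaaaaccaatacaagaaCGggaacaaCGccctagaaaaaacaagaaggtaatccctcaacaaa
Longest, chr6:10640211-10640410: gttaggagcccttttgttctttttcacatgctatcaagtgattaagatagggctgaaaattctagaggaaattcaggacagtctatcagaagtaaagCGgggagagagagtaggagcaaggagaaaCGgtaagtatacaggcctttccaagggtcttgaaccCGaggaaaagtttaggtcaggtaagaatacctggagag
Farthest from a gene, chr14:82664716-82664915: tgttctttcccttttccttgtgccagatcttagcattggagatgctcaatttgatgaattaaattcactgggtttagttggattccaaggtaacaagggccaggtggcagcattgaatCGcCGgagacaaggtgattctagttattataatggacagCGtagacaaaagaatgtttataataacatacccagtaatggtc
Smallest p, higher with TGF-β1, chr10:48141937-48142136: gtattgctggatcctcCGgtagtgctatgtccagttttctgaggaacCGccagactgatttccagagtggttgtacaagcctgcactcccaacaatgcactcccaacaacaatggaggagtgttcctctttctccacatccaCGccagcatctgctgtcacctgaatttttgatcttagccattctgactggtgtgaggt
Smallest p, lower with TGF-β1, chr8:53494731-53494930: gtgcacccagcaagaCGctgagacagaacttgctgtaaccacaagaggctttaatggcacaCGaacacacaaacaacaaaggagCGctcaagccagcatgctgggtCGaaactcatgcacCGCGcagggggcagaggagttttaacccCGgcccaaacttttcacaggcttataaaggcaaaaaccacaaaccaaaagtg
Called in TGF-β1 samples only, chr5:59835497-59835696: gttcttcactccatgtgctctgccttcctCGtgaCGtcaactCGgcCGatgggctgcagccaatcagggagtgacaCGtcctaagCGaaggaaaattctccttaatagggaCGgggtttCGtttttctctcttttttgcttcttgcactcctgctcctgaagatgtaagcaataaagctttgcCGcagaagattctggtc
Called in control samples only, chr3:71277424-71277623: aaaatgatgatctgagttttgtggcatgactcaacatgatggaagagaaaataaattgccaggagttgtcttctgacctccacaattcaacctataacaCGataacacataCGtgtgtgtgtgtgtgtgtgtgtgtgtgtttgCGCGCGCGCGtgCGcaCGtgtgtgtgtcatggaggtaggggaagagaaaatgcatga
The region with the highest fold enrichment held 5 CpG in these 200 bases and aligned to family 8, which also read as LINE-1. The longest region and the printed region called in TGF-β1 samples only both belonged to family 1. The latter does not stand for its kind. Of the 25 desert regions called in all 3 TGF-β1 and no control samples, 4 belonged to family 1. Its printed 200 bases were found in 3 of the 25. The regions ranked 1 and 3 of this kind aligned to none of the family sequences. The printed region called in control samples only held 9 CpG, most of them inside a run of alternating purine and pyrimidine bases. It and the other 3 printed regions aligned to none of the 10 family sequences.

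Desert peaks were sparse, with a density 0.280 times that of peaks in the rest of chr1 to chr19. The 267 deserts spanned 243 Mb, of which 182 Mb were sequenced bases, or 7.62% of chr1 to chr19, and they held 5.01 CpG per kb against 8.80 CpG per kb in the rest. Control samples 1, 2 and 3 had 10.1, 11.2 and 12.5 desert peaks per Mb, and TGF-β1 samples 1, 2 and 3 had 12.2, 12.3 and 11.9. In the rest of chr1 to chr19 the same samples had 35.3, 39.1 and 43.4 peaks per Mb, and 43.9, 43.4 and 45.8. Every sample was lower in deserts, with a mean of 11.7 ± 0.897 against 41.8 ± 3.87 peaks per Mb (SD, n = 6), a log2 ratio of -1.83 ± 0.05 (SD over the 6 samples, exact sign-flip test, two-sided p = 0.0312, the smallest that 6 samples allow, adjusted p = 0.0365 over 7 such measures). Counted per 10000 CpG the gap was smaller, with 23.4 ± 1.79 desert peaks and 47.5 ± 4.40 peaks elsewhere (SD, n = 6) and a log2 ratio of -1.02 ± 0.05 (exact sign-flip test, p = 0.0312, adjusted p = 0.0365).

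The density per Mb fell in steps with distance from genes, and the density per CpG levelled off inside the deserts. In gene bodies the 6 samples had 53.7 ± 5.27 peaks per Mb, 0 to 50 kb away 42.2 ± 3.84, 50 to 100 kb away 32.3 ± 2.74, 100 to 250 kb away 24.5 ± 1.95 and 250 to 500 kb away 16.3 ± 1.27 (SD, n = 6). Between 500 kb and 1 Mb there were 11.9 ± 0.966 peaks per Mb, and beyond 1 Mb 11.2 ± 0.724, lower in every sample. Per 10000 CpG the zones from 500 kb to 1 Mb and beyond 1 Mb had 23.3 ± 1.89 and 23.5 ± 1.51 peaks (SD, n = 6), against 27.6 ± 2.14 in the zone from 250 to 500 kb. From the nearer to the farther desert zone this value rose in control samples 1 and 2 and TGF-β1 sample 2 and fell in the others. At the boundary itself little changed. Samples had 317 to 394 peaks between 450 and 500 kb from a gene and 267 to 344 between 500 and 550 kb, with median lengths of 331 to 367 bp and 351 to 381 bp and median fold enrichments of 6.44 to 6.89 and 6.44 to 7.25. The summit nearest the boundary lay 499959 bp from a gene on its near side and 500019 bp on its far side.

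**Figure D1:**
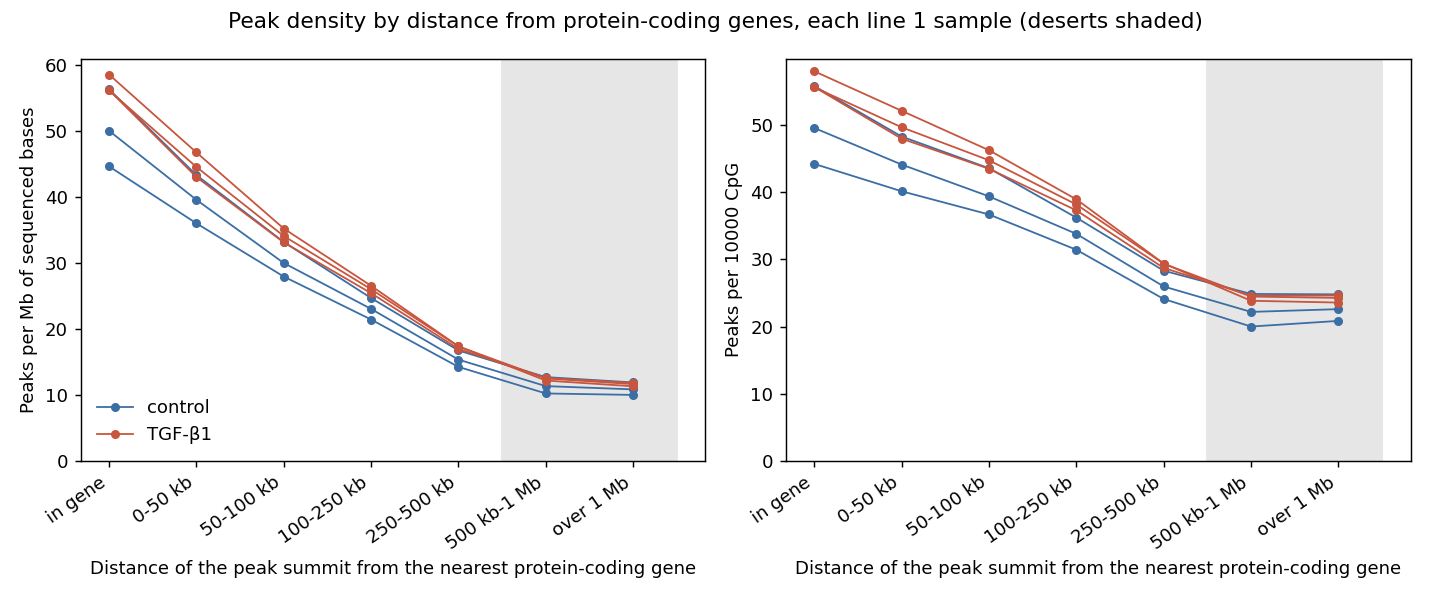
Peaks per Mb of sequenced bases (left) and peaks per 10000 CpG (right) by distance of the summit from the nearest protein-coding gene, with 1 line per sample, blue for control and red for TGF-β1, and deserts shaded. The mean over samples falls from 53.7 peaks per Mb in gene bodies to 11.2 beyond 1 Mb, and per 10000 CpG it stays at 23.3 and 23.5 in both desert zones.

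Desert peaks were longer and had a higher fold enrichment than other peaks, at the same mean of the median pileups with deserts set at 500 kb. Fold enrichment here is the ratio MACS2 gave of the pileup, a count of extended reads at the summit, to a background from the same sample. That background was not always local to the peak. In control sample 1 a pileup of 17 reads gave the same value, 7.04, in desert regions on chromosomes 1, 10 and 18. The median desert peak measured 356, 364 and 369 bp in control samples 1 to 3 and 373, 365 and 385 bp in TGF-β1 samples 1 to 3, against 338, 340, 350, 349, 345 and 357 bp elsewhere. The mean gap was 22.1 ± 3.93 bp and was positive in all 6 samples (exact sign-flip test, p = 0.0312, adjusted p = 0.0365). Median fold enrichment was 6.96, 6.90 and 6.89 in control and 6.57, 6.70 and 6.84 with TGF-β1, against 6.08 to 6.31 elsewhere, a gap of 0.624 ± 0.0859 that was again positive in all 6 samples (exact sign-flip test, p = 0.0312, adjusted p = 0.0365). The rise with distance began outside deserts. Sample medians were 5.98 to 6.26 in gene bodies and 6.44 to 6.83 from 250 to 500 kb. They were 6.56 to 6.89 from 500 kb to 1 Mb and 6.58 to 7.20 beyond 1 Mb. The median pileup was 19 to 24 reads in deserts and 19 to 23 reads elsewhere, with a mean difference of 0 ± 0.632 reads (exact sign-flip test, p = 1). With deserts set at 250 kb this difference was -0.833 reads, and at 1 Mb it was 1.17 reads (exact sign-flip test, p = 0.0625 for each).

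Desert peaks were lower in GC yet denser in CpG than peaks elsewhere. They held 46.4% ± 0.230 GC against 47.8% ± 0.474 in other peaks (SD, n = 6), lower by 1.04 to 1.77 percentage points in every sample (exact sign-flip test, p = 0.0312, adjusted p = 0.0365), while desert sequence as a whole held 37.4% GC. Per 100 bp they carried 3.15 to 3.28 CpG, against 2.61 to 2.79 in other peaks, a difference in the same direction in every sample that was not tested. Annotated non-coding genes overlapped 91 of the 3556 desert regions (2.56%), among them 37 with a processed transcript, 33 with a pseudogene, 13 with a lincRNA, 7 with an snRNA and 2 with a miRNA gene.

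A desert peak was more likely than other peaks to be seen again. Of control samples 1, 2 and 3, 85.4%, 86.0% and 79.7% of desert peaks overlapped a peak of another control sample by at least 1 bp, and 87.1%, 85.3% and 87.6% did so among TGF-β1 samples 1, 2 and 3. The shares among peaks elsewhere were 81.4%, 84.0% and 78.3% in control and 85.3%, 83.7% and 81.4% with TGF-β1. Control sample 3 was lowest in both, and the gap was widest in TGF-β1 sample 3, at 6.22 percentage points. It was positive in all 6 samples, with a mean of 2.84 ± 1.91 percentage points (SD, n = 6; exact sign-flip test, p = 0.0312, adjusted p = 0.0365).

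Joined across samples, 1103 of the 3556 desert regions (31.0%) had a peak in all 6 samples, where 24.5% of all 166838 regions on chr1 to chr19 did. A further 939 desert regions (26.4%) had a peak in 1 sample, close to the 27.3% of the rest, and 449, 336, 349 and 380 had peaks in 2, 3, 4 and 5 samples. Desert regions called in all 6 samples were longer than such regions elsewhere, with a median of 551 against 490 bp. They also had a higher median of the mean fold enrichment, 8.29 against 7.32, and more CpG, 3.59 against 2.59 per 100 bp, at the same GC content of 47.8%. Regions called in 1 sample were short in both, with a median of 296 bp, and poor in CpG, with 1.77 per 100 bp in deserts and 2.13 elsewhere. Each of these is 1 number for the series without a replicate error, and no test was run on them.

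**Figure D2:**
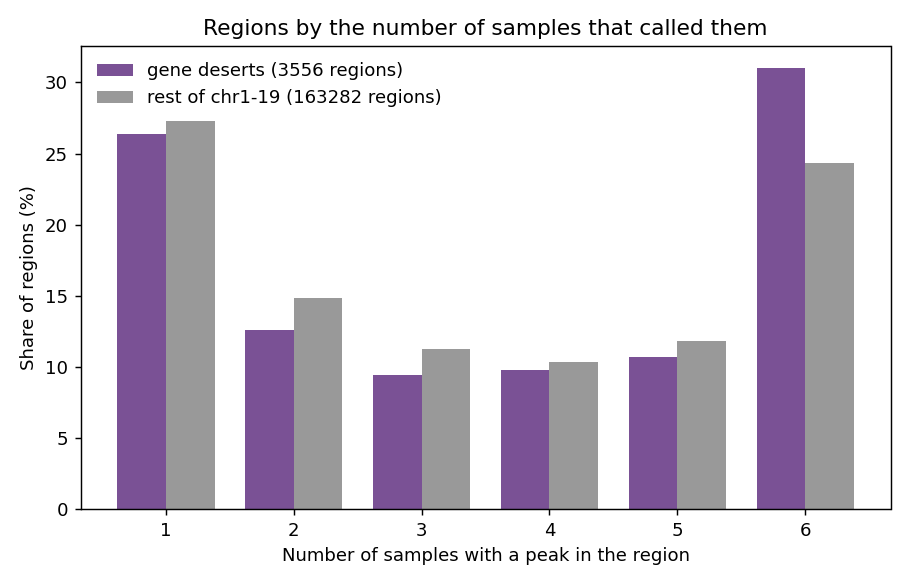
Share of regions, in percent on the vertical axis, by the number of samples with a peak in the region, for 3556 desert regions (purple) and 163282 regions in the rest of chr1 to chr19 (grey). The bars differ most at 6 samples, where 31.0% of desert regions stand beside 24.3% of the others.

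Between groups, no desert measure could pass the 0.05 level, since 3 samples against 3 allow no p below 0.1. Control samples 1, 2 and 3 held 1848, 2037 and 2270 desert peaks and TGF-β1 samples 1, 2 and 3 held 2231, 2249 and 2172, so that the groups overlapped and control sample 3 was the highest of all. The means were 2052 ± 211 and 2217 ± 40.3 desert peaks (SD, n = 3), a difference of 166 (exact two-sided permutation test, p = 0.4, adjusted p = 0.4 over 5 such measures). Per 1000000 reads the direction turned, with 198 ± 18.7 desert peaks in control and 172 ± 7.71 with TGF-β1 (SD, n = 3; exact permutation test, p = 0.1). TGF-β1 sample 3 had the most reads of the series and fewer desert peaks than the other TGF-β1 samples.

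As a share of all peaks on chr1 to chr19, desert peaks made up 2.31%, 2.30% and 2.31% in control and 2.24%, 2.29% and 2.10% with TGF-β1. Every TGF-β1 sample was below every control sample, with a mean difference, TGF-β1 minus control, of -0.0967 percentage points (p = 0.1 by exact permutation, which 3 against 3 cannot go below, adjusted p = 0.25). It rested largely on TGF-β1 sample 3, without which it was -0.0413 percentage points. Depth was higher in the same 3 samples, so its part cannot be told apart from that of treatment. The median fold enrichment of desert peaks was likewise lower in every TGF-β1 sample, 6.70 ± 0.137 against 6.92 ± 0.0376 in control (SD, n = 3; exact permutation test, p = 0.1, adjusted p = 0.25). Peaks outside deserts showed the same order, with 6.08, 6.12 and 6.13 in TGF-β1 samples and 6.26, 6.23 and 6.31 in control samples. Among desert peaks with a fold enrichment of at least 5 the difference between groups turned, to 0.0252 (exact permutation test, p = 0.9). Median length was 374 ± 10.1 bp with TGF-β1 and 363 ± 6.83 bp in control, and the groups overlapped (exact permutation test, p = 0.2, adjusted p = 0.333). The difference of 11.5 bp was 6.17 bp without TGF-β1 sample 3. The share of desert peaks seen in another replicate was 86.7% ± 1.21 and 83.7% ± 3.48, with overlap as well (exact permutation test, p = 0.3, adjusted p = 0.375).

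**Figure D3:**
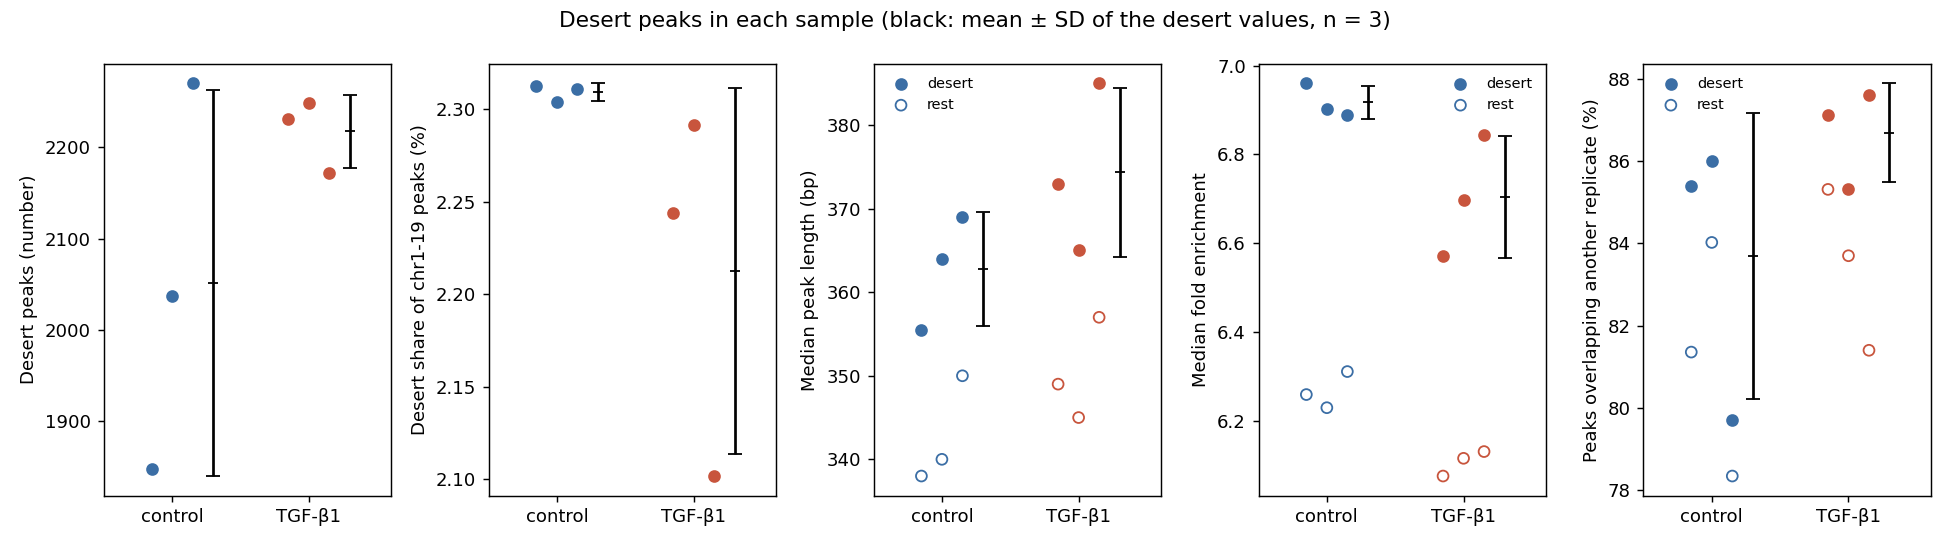
From left to right, desert peaks per sample, their share of chr1 to chr19 peaks, median peak length, median fold enrichment and the share of peaks overlapping another replicate, with filled points for desert peaks, open points for the rest, and bars for the mean ± SD of the desert values (n = 3). The share of desert peaks and their fold enrichment are lower in all 3 TGF-β1 samples, at 2.10% to 2.29% and 6.57 to 6.84, than in any control sample.

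Region by region, no desert region passed the test between the groups. In a limma test on log2 pileup after median centring of every sample, adjusted over all 41744 regions called in all 6 samples, 0 of the 1103 desert regions had an adjusted p below 0.05, as did 0% of all regions, and the smallest adjusted p among desert regions was 0.999. At an unadjusted p below 0.05, 26 desert regions were higher with TGF-β1 (2.36%, beside 1.96% of all regions) and 26 were lower (2.36%, beside 2.22%). The log2 differences of the 1103 ran from -0.78 to 0.84, with a median of 0.00, as over all regions, and with 548 regions higher and 555 lower. Their median standard error was 0.21. A test of read counts was not possible, because peak lists hold no reads of uncalled regions.

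The desert region with the smallest p among those higher with TGF-β1, chr10:48141834-48142242 between Hace1, a ubiquitin ligase gene, and Grik2, a glutamate receptor gene, had pileups of 17, 16 and 15 reads in control samples 1, 2 and 3 and 42, 34 and 26 in TGF-β1 samples 1, 2 and 3. All 3 treated samples stood above all controls, and after centring the log2 difference was 0.84 ± 0.23 (SE; limma adjusted p = 0.999). The next, chr1:116831177-116831627 in the desert between Dsel and Cntnap5a, had 14, 13 and 16 reads against 29, 23 and 27 (log2 difference 0.65 ± 0.21, SE; limma adjusted p = 0.999). At chr1:41426962-41427521, which lies 515 kb from Tmem182, control pileups of 21, 19 and 34 stood against 46, 40 and 40 (log2 difference 0.59 ± 0.20, SE; limma adjusted p = 0.999).

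Lower with TGF-β1 at the smallest p was chr8:53494599-53495007 in the desert between 4930555F03Rik and Aga, the gene of a lysosomal amidase, with 18, 20 and 29 reads in control and 17, 16 and 16 with TGF-β1 (log2 difference -0.64 ± 0.21, SE; limma adjusted p = 0.999). The groups did not overlap there, but the lowest control was 1 read above the highest treated sample. The region chr1:103901840-103902204, between Cntnap5b and Cdh20, both genes of adhesion proteins, rested on a single sample. Its pileups were 79, 54 and 51 in control and 48, 16 and 88 with TGF-β1, and the log2 difference of -0.78 ± 0.30 (SE; limma adjusted p = 0.999) was -0.14 without TGF-β1 sample 2 and -1.30 without TGF-β1 sample 3. At chr1:29898424-29898800 the pileups were 25, 21 and 27 in control and 22, 19 and 17 with TGF-β1, and the groups overlapped (log2 difference -0.55 ± 0.22, SE; limma adjusted p = 0.999).

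Calls present in all samples of a group and absent from the other were few. Of the 3556 desert regions, 25 (0.703%) had a peak in all 3 TGF-β1 and no control sample, beside 0.946% of all regions on chr1 to chr19, and 4 (0.112%) had a peak in all 3 control and no TGF-β1 sample, beside 0.233%. Both shares were below those of all regions, and 1103 desert regions were called in all 6 samples. The control-only share depended on the peaks taken. With those of a fold enrichment of at least 5 alone, 13 of 3129 desert regions (0.416%) were control-only, above the 0.354% of all regions. The highest mean pileup among the 25 was at chr18:55854961-55855306 between Zfp608 and Gramd3, with 22, 25 and 25 reads in the 3 TGF-β1 samples. The next were chr5:59835395-59835776, an IAP-type repeat between Pcdh7 and G6pd2 with 22, 23 and 21 reads, and chr18:19508825-19509244 between Cdh2, the gene of N-cadherin, and Dsc3, the gene of a desmosomal cadherin, with 23, 26 and 16 reads. Among the 4 control-only regions, chr3:71277364-71277734 between Otol1 and Sis led with 16, 15 and 21 reads, followed by chr18:18941970-18942288 between Cdh2 and Dsc3 with 17, 14 and 15 reads and chr14:40934150-40934472 between Nrg3 and Sh2d4b with 14, 13 and 15 reads. These pileups were at or below the desert medians of 19 to 24 reads or just above them, and the lowest desert pileup called was 9 or 10 reads in every sample, so an uncalled sample may have held reads too few to pass.

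The 10 family sequences made up a larger share of desert regions than of regions elsewhere, 34.8% against 8.90%, but were about as dense, at 6.80 and 6.57 regions per Mb, since deserts had fewer regions of other kinds (12.7 against 67.3 per Mb). Family 1 gathered 837 desert regions (23.5%) by alignment to a central region of 1620 bp, and 511 of them (61.1%) were called in all 6 samples. The name of IAP long terminal repeat was read from the 200 printed bases and need not hold for every member. The printed sequence of family 1 alone, aligned over at least 100 of its bases, was found in 473 desert regions (13.3%) and in 3524 regions of the rest (2.16%), or 2.60 and 1.59 regions per Mb. It was present in 364, 380 and 404 called desert regions in control samples 1, 2 and 3 and in 413, 402 and 427 in TGF-β1 samples 1, 2 and 3. The groups overlapped, at 404 in control sample 3 and 402 in TGF-β1 sample 2, and depth moved with the groups. Family 2 was found in 165 desert regions (4.64%) and 0.652% of the rest, and family 4, also without a name, in 90 (2.53%) and 0.444%. Of these desert regions 63.6%, 47.9% and 36.7% were called in all 6 samples for families 1, 2 and 4. Outside deserts the shares were higher, at 69.5%, 55.3% and 46.3%. The families were chosen from the desert regions themselves, so their larger share there follows in part from the choice, and no test was run.

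Families 6 and 8, both read as the body of LINE-1, were found in 126 desert regions (3.54%) and in 0.470% of the rest. Of the desert ones 39.7% were called in all 6 samples, close to the 38.1% outside deserts. The desert ones had a median of 0.995 CpG per 100 bp and a median fold enrichment of 6.82, beside 6.58 outside deserts. Families 3, 5 and 7 were seldom called again. Family 7, the start of LINE-1, was called in all 6 samples in 3 of 61 desert regions (4.92%), beside 5.11% outside deserts. It was uneven between samples, with 4, 20 and 48 desert regions in control samples 1, 2 and 3 and 18, 33 and 7 in TGF-β1 samples 1, 2 and 3, a spread within groups that exceeded the difference between them. Family 3, a run of purine bases beside the end of a B1 element, a short mobile element of rodents, had 27, 25 and 64 desert regions in control and 35, 35 and 27 with TGF-β1. Control sample 3 was thus the highest in both. Family 5, a run of alternating C and A, was found in 120 desert regions (3.38%). Of these 14.2% were called in all 6 samples, beside 15.8% outside deserts. Families 3 and 5 were less dense in deserts than elsewhere, at 0.587 and 0.658 regions per Mb against 1.36 and 1.73, and so was family 9, at 0.236 against 0.304. The desert regions that aligned to no other desert region numbered 743, and 131 of them (17.6%) were called in all 6 samples, against 34.6% of the 2813 that aligned to another.

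The reference genome shows how much of each sequence went uncalled. The family 1 sequence had 188 copies in deserts, counted where at least 150 of its 200 bases aligned at 80% identity or more, and 171 of them (91.0%) overlapped a called region, 116 (61.7%) a region called in all 6 samples. Outside deserts 1645 of 1756 copies (93.7%) overlapped a region. Of 241 desert copies of family 2, 66.4% did so, and of 297 copies of family 4, 39.1%, against 71.7% and 48.1% of their copies elsewhere. Most copies of the LINE-1 families went uncalled, with 2977 and 2827 desert copies of families 6 and 8, of which 2.65% and 2.37% overlapped a called region. Family 7 had 1276 desert copies, of which 7.60% did so. Outside deserts the shares were close to these, at 2.86%, 2.60% and 7.92% for families 6, 8 and 7. Copies of families 6 and 8 were denser in deserts than elsewhere, at 16.3 and 15.5 per Mb against 8.76 and 8.11, while copies of family 1 stood at 1.03 and 0.794 per Mb. Only reads that mapped to a unique place were used for calling, and how that limits calls in near-identical copies was not tested.

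**Figure D4:**
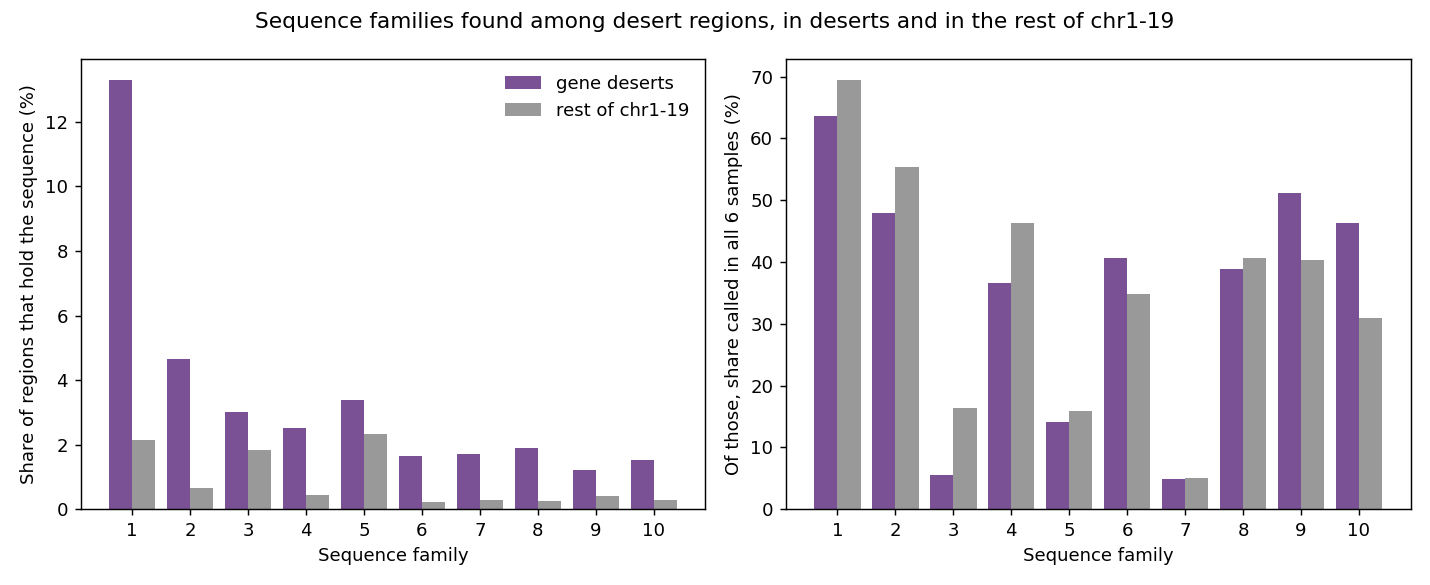
Share of regions that hold each family's 200-base sequence (left, percent) and, of those, the share called in all 6 samples (right, percent), for desert regions (purple) and the rest of chr1 to chr19 (grey), by family number. Family 1 stands at 13.3% of desert regions and 2.16% of the rest, and family 7 is the lowest at right with 4.92% in deserts and 5.11% in the rest.

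The strongest calls in deserts were short regions with few CpG. The region with the highest mean fold enrichment, chr2:95256008-95256451 between Api5 and Lrrc4c, the gene of a synaptic adhesion protein, had 6 CpG in 444 bp and fold enrichments of 27.0, 27.7 and 27.7 in control and 26.9, 27.4 and 27.2 with TGF-β1. Its pileups were 169, 161 and 177 in control and 177, 180 and 180 with TGF-β1. Next came chr14:83358268-83358712 between Olfm4 and Pcdh17, a protocadherin gene, with 2 CpG in 445 bp and a mean fold enrichment of 26.1, and chr5:59267554-59267997 near Pcdh7, with 4 CpG in 444 bp and 24.2. The leading region aligned to family 8, the next to family 6 and the third to family 10. Family 10 was found in 54 desert regions (1.52%) and in 0.295% of the rest. Of the desert ones 46.3% were called in all 6 samples, beside 30.9% outside deserts. The values of all 3 strongest regions varied little between samples of either group. With 2 to 6 CpG each they lay far below the median of 3.59 CpG per 100 bp of desert regions called in all 6 samples. What raised the reads there was not tested.

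The longest desert regions were rich in CpG instead. The longest called in all 6 samples, chr6:10639466-10641085 between Nxph1 and Ndufa4, held 73 CpG in 1620 bp and had pileups of 35, 45 and 45 in control and 48, 49 and 49 with TGF-β1, in a family 1 element. The next, chr15:24066766-24068143 between Cdh18 and 9230109A22Rik, held 51 CpG in 1378 bp and read as family 4, with pileups of 38, 43 and 49 against 50, 56 and 37. The third, chr8:104533395-104534583 between Gm17316 and Cdh11, held 50 CpG in 1189 bp and read as family 1, with 39, 36 and 35 against 44, 34 and 46. Their mean fold enrichments of 6.40, 10.5 and 6.80 were far below those of the 3 strongest regions.

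The regions farthest from a gene lay in the middle of the 2 deserts beside Pcdh17 and Cdh20. The farthest, chr14:82664605-82664982, was 2.18 Mb from Pcdh17 and 2.24 Mb from Olfm4, and had pileups of 44, 44 and 40 in control and 48, 48 and 52 with TGF-β1, with 5 CpG in 378 bp. The next, chr14:82577987-82578593 in the same desert, was an IAP-type repeat with 34 CpG in 607 bp and pileups of 52, 49 and 61 against 62, 64 and 77. The third, chr1:104714788-104715281, was 1.95 Mb from Cdh20 and had 17, 16 and 17 reads against 17, 24 and 27, also in family 1. In these regions the treated samples were at or above the highest control sample, as their depth was, and after centring the log2 differences were -0.01 ± 0.17, 0.10 ± 0.15 and 0.20 ± 0.22 (SE; limma adjusted p = 0.999 for each).

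Deserts differed from each other more than samples did. Of the 61 deserts with at least 1 Mb of sequenced bases, the mean over samples ran from 2.66 to 26.8 peaks per Mb, with a median of 9.91. Across these 61 deserts, the densities of any pair of samples were ranked alike (Spearman rho 0.894 to 0.944, a description over deserts that share their sequence and CpG content), and density rose with CpG per kb (rho 0.579), with rho 0.199 for GC content. The longest were Celf4-Pik3c3 on chromosome 18 (3.52 Mb), with 6.25 to 8.81 peaks per Mb over the 6 samples, Olfm4-Pcdh17 on chromosome 14 (3.42 Mb) with 7.60 to 9.94, and Cntnap5b-Cdh20 on chromosome 1 (3.28 Mb) with 9.44 to 11.6. The desert 4930555F03Rik-Aga on chromosome 8 (2.99 Mb) had 7.69 to 9.36 peaks per Mb, and Dsel-Cntnap5a on chromosome 1 (2.82 Mb) had 14.9 to 19.5. Their ranges show that the last was above the others in every sample.

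The densest of the 61 was Cntn5-Phxr4 on chromosome 9, beside the gene of contactin 5, a neuronal adhesion protein, with 22.6, 28.6 and 30.1 peaks per Mb in control and 27.8, 24.1 and 27.8 with TGF-β1. It was also the desert with the most CpG per kb among those of at least 1 Mb named here, at 5.54. Cdh2-Dsc3 on chromosome 18 had 18.6, 19.1 and 23.2 against 23.2, 24.2 and 23.7, and Gm1840-Efnb2 on chromosome 8, beside the ephrin B2 gene, had 17.2, 20.7 and 21.8 against 20.2, 21.8 and 17.2. The sparsest was Igsf11-Lsamp on chromosome 16, between genes of immunoglobulin-type adhesion proteins, with 4 peaks in each control sample and 4, 3 and 5 with TGF-β1 over 1.51 Mb. It held 5.02 CpG per kb, close to the mean of all deserts. Sel1l-Gm9726 on chromosome 12 had 4, 3 and 3 peaks in control and 3, 4 and 5 with TGF-β1, and Fstl5-Gm5277 on chromosome 3 had 3, 7 and 6 against 4, 4 and 3. Groups overlapped or met in all 6 of these deserts. Another 35 deserts, with 0.599 Mb of sequence together, had no peak in any sample.

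**Figure D5:**
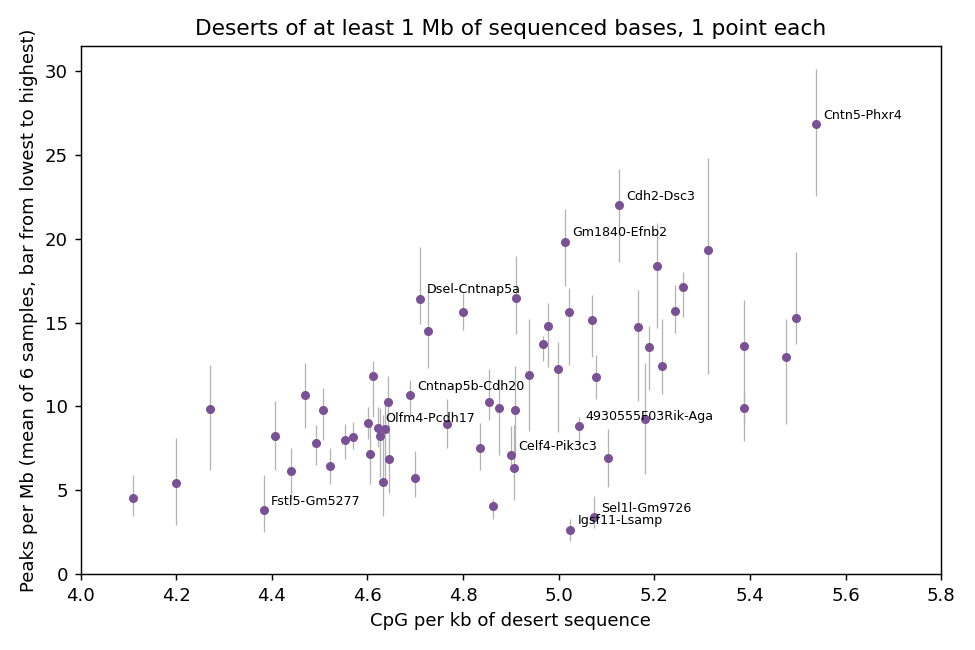
Peaks per Mb (mean of the 6 samples, bar from the lowest to the highest sample) against CpG per kb of sequence, with 1 point for each of the 61 deserts of at least 1 Mb of sequenced bases and names for those described in the text. Density rises with CpG (Spearman rho 0.579), while Igsf11-Lsamp, at 5.02 CpG per kb, sits lowest with 2.66 peaks per Mb.

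Some desert neighbours were genes of adhesion and synaptic proteins. Of 58 such genes on chr1 to chr19 in the list used here, 39 (67.2%) flanked a desert, where 485 of all 21281 protein-coding genes (2.28%) did, but the list was chosen with earlier results of these data known and no test was run. Among the 39 were Cdh10, Pcdh9, Robo1 and Lrrc4c, and the 39 bounded 47 of the 267 deserts, with 57.4 Mb of sequence and 10.8 to 13.2 peaks per Mb over the samples. Of 52 developmental transcription factors and signals, 15 (28.8%) flanked a desert, among them Sox2, Sox11, Nr2f1 and Myc, and they bounded 16 deserts that were short, with 6.09 Mb together, and had 14.8 to 18.1 peaks per Mb. Deserts beside neither list numbered 204 and had 9.54 to 11.9 peaks per Mb. The CpG content was 4.94, 5.75 and 5.01 per kb in that order. Deserts beside the developmental genes thus had the most peaks and the most CpG. Those beside adhesion genes had more peaks per Mb than those beside neither list (means 12.3 and 11.2) but less CpG. No test was run between these lists.

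Cut into 2303 bins of 100 kb, the deserts had a median of 1 region per bin, and 1049 bins (45.5%) had none. The fullest bin lay on chromosome 8 from 105889778 to 105989777, between Gm8730 and Cdh5, the gene of VE-cadherin, with 14 regions of which 6 were called in all 6 samples. The next were on chromosome 10 from 123978033 to 124078032, between Fam19a2 and Slc16a7, with 12 regions and 4 called in all 6 samples, and on chromosome 10 from 65766416 to 65866415, between Ctnna3 and Reep3, with 10 regions and 4 called in all 6 samples. By chromosome, desert density was highest on chromosome 10, at 17.0 peaks per Mb, and lowest on chromosome 19, at 7.75 peaks per Mb over 1.40 Mb of desert.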

How the data were processed

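Genomic DNA of 3 control and 3 TGF-β1 samples, grouped by the treatment in their labels, was sheared to a median of 200 bp and immunoprecipitated. Per the labels and file headers, the authors mapped reads to mm9 with BWA and called peaks in each sample alone with MACS2 2.1.0.20150731, without an input sample and at a q cutoff of 0.01, from uniquely mapped 49 bp reads after removal of duplicates. The deposited pileup is a signal that counts extended reads at the summit and was left unscaled for depth. In the deposited lists, fold enrichment is a ratio of pileup to a background from the same sample, and q-values stand on a -log10 scale. Depth was 9407103 to 13291419 reads, and its number limits the precision of every call.

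Peaks were placed by GENCODE vM1 and NCBIM37, counted from 1, and joined at 1 bp overlap (checked against bedtools 2.31.1). Densities used sequenced bases. Desert and other peaks of the same sample were compared by exact sign-flip tests over 6 samples, and groups by exact permutation tests. Regions were compared by limma 3.58.1 in R 4.3.3 (lmFit, then eBayes with its trend option) on the log2 of each region's highest pileup. The limma step was also run on simulated data with differences far larger than those observed. That run cannot show its power at the observed size. Families came from blastn 2.17.0 (word size 11, expectation 1e-10, no masking), taking in turn the region with the most unassigned partners. Calculations used Python 3.11.15.

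Regions named were, among those called in all 6 samples, the 3 with the highest mean fold enrichment, the 3 longest, the 3 farthest from a gene and, for each direction, the 3 leading regions by limma p. Among regions called in all samples of 1 group but in no sample of the other, the 3 of highest mean pileup were named. A sequence was shown for the leading region of each kind outside chromosome 18. Deserts named were the 5 longest and, of those of at least 1 Mb, the 3 densest and 3 sparsest. The members, gene lists and tests were chosen with earlier results of these data known, and the sequence families after the sequences had been seen. Sequences were printed for 3 of the 10 families and genome copies given for 6.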

Additional observations from a re-analysis of the deposited data

How the results depend on the processing

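Of 160 values recomputed under other settings, the following moved. Per 1000000 reads, the group difference in desert peaks was -25.6 (exact permutation p = 0.1), and at a fold enrichment of at least 5 that in median fold enrichment was 0.0252 (exact permutation p = 0.9), both in the other direction. Regions called in all 6 samples numbered 2667 with deserts set at 250 kb and 317 at 1 Mb, those called in TGF-β1 samples only 75 and 5, and those called in control samples only 16 and 2, because more or less of the genome entered. At a fold enrichment of at least 5 the control-only regions numbered 13, and the cause was not tested. The desert against rest difference in median pileup was -0.833 reads with deserts set at 250 kb and 1.17 reads at 1 Mb. In limma, 52 desert regions had an unadjusted p below 0.05. No desert region passed under the other limma settings, among them log2 fold enrichment, scaling by reads, regions called in at least 3 samples, and an adjusted p below 0.01 with an absolute log2 change above 2.

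Leaving out each sample in turn, the desert against rest measures other than median pileup kept their direction. Their exact sign-flip p was 0.0625, the smallest that 5 samples allow. The difference in median pileup ran from -0.2 to 0.2 reads. Density ran from -1.84 to -1.81 per Mb and from -1.03 to -1.002 per 10000 CpG (log2 ratios), median length from 20.9 to 23.0 bp, median fold enrichment from 0.606 to 0.650, overlap with another replicate from 3.13 to 4.22 percentage points, and GC content from -1.48 to -1.34 percentage points. The group difference in that overlap ran from -7.08 to 15.9 percentage points, because a group of 2 has fewer replicates to overlap. It ran from 63.8 to 275 for the number of desert peaks. That in the desert share of peaks ran from -0.136 to -0.0413 percentage points, in median length from 6.17 to 16.2 bp and in median fold enrichment from -0.283 to -0.147.

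With the replicate number as a replicate block, the group differences were 166 desert peaks (p = 0.5 by exact sign flips of 3 pairs, which allow no p below 0.25) and 0 limma calls. Nothing beyond the number ties same-numbered samples: their deviations from the group means correlated with r from -0.130 to 0.0432 over 41744 regions, and 1 of 6 samples correlated best with its own number.

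Depth limits which weak regions were called: the lowest desert pileup in a list was 9 or 10 reads, and reads below that were not used here.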
